A study of Mus musculus with 4 samples.

Results

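The heat shock chaperones described here are 8 genes, chosen by name, of 26130 listed in the tables. Each was found once, and each had reads in all 4 libraries. They encode the heat-inducible HSP70 pair Hspa1a and Hspa1b, their co-chaperones Dnajb1 and Hsph1, the inducible HSP90 Hsp90aa1, the small heat shock protein Hspb1, the constitutive cytosolic HSP70 Hspa8, and Hspa5, the HSP70 of the endoplasmic reticulum (ER). The first 6 are called inducible below and the last 2 constitutive.

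Chaperones bind unfolded stretches of other proteins and keep them from clumping. HSP70 proteins do so in cycles of ATP use that J-domain proteins start and nucleotide exchange factors end, and HSP90 takes over partly folded clients such as kinases and receptors. The transcription factor HSF1 switches on the inducible genes after heat or other protein damage by binding heat shock elements, inverted repeats of the bases GAA, whereas Hspa5 answers to the unfolded protein response of the ER. Embryonic stem cells are known for a high basal level of several chaperones.

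The libraries were made from mouse embryonic stem cells of 2 lines. The groups were Zfp57-/- cells of E14 (strain 129P2/OlaHsd), wild-type E14 cells, Zfp57-/- cells of JB1 (strain JF1/B6) and wild-type JB1 cells, with 1 library in each. ZFP57 is a zinc finger protein that keeps DNA methylation at imprinted regions. All cells grew without feeders on gelatin with serum and leukemia inhibitory factor and the labels name no heat or other stress treatment. How the knockouts were made and how many clones they stand for is not given in the sources used here.

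Values are RPM, reads of a gene for each 1000000 reads of the library total used by the authors. With no replicates within a line, ratios carry 95% intervals (exact, Clopper-Pearson) that cover the error of counting alone, and no test was run inside a line. The libraries held between 26801865 and 66849394 reads in listed genes. Zfp57 itself was 51.8 RPM in the E14 knockout against 135 RPM in E14 wild type. It was 42.9 RPM in the JB1 knockout against 796 RPM in JB1 wild type, so both pairs went in the direction of the labels. All 10 embryonic stem cell markers had reads in every library, with Pou5f1 between 442 and 940 RPM, but 8 of 10 were lower in the E14 knockout and 7 of 10 in the JB1 knockout. Among all genes at 1 RPM or more, 53.5% were higher in the E14 knockout and 51.5% in the JB1 knockout. Nanog stood at 137 RPM in E14 knockout cells, against 228 RPM in their wild type, and at 362 RPM in JB1 knockout cells, against 693 RPM in theirs. The 10 fibroblast or feeder markers summed to 4.82 RPM in the E14 knockout against 4.58 RPM in E14 wild type and to 22.5 RPM in the JB1 knockout against 10.5 RPM in JB1 wild type, with Dcn at 0 reads in all 4 libraries. Primitive endoderm markers summed to 15.0 RPM in the E14 knockout against 17.4 RPM in E14 wild type and to 56.4 RPM in the JB1 knockout against 39.6 RPM in JB1 wild type. Trophoblast markers summed to 10.7 RPM in the E14 knockout against 8.14 RPM in E14 wild type and to 31.1 RPM in the JB1 knockout against 18.9 RPM in JB1 wild type. Histone genes summed to 2499 RPM in the E14 knockout against 935 RPM in E14 wild type, and to 28.0 RPM in the JB1 knockout against 39.6 RPM in JB1 wild type. Their transcripts mostly lack the poly(A) tail by which the libraries were selected. Whether these shifts have a part in the values below was not tested.

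The start regions of 4 members are shown because their values are set against each other below. Sequences were found for 6 of the 8 members. The heat-inducible pair and Hspb1 carry heat shock element pairs, and Hspa5 carries an ER stress element. The sequences are RefSeq's for GRCm38.p6, 250 bases before to 50 after the annotated start, 5′ to 3′ on the gene's strand. They are Hspa1a (chr17:34972107-34972406, minus strand), Hspa1b (chr17:34959189-34959488, minus strand), Hspb1 (chr5:135887669-135887968, plus strand) and Hspa5 (chr2:34771840-34772139, plus strand). In the first 3, capitals mark every match to GAANNTTC or TTCNNGAA, which read the same on both strands. In Hspa5, capitals mark CCAAT and CCACG at a spacing of 9 bases, searched on both strands.
Hspa1a: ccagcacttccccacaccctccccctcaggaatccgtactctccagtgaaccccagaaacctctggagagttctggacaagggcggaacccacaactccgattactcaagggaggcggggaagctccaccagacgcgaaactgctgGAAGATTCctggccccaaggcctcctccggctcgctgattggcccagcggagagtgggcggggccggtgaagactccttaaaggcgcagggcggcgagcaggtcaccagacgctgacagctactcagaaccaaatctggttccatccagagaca
Hspa1b: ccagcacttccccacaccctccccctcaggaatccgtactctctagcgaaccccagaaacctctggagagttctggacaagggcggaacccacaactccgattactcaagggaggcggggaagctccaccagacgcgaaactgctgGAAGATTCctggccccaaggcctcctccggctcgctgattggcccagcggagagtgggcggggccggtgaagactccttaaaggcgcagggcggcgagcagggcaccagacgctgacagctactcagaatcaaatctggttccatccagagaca
Hspb1: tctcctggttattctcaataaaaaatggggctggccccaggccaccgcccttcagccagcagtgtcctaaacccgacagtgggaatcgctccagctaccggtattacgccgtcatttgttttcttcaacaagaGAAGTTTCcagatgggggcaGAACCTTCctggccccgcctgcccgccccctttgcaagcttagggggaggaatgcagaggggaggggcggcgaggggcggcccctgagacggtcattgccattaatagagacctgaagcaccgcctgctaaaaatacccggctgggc
Hspa5: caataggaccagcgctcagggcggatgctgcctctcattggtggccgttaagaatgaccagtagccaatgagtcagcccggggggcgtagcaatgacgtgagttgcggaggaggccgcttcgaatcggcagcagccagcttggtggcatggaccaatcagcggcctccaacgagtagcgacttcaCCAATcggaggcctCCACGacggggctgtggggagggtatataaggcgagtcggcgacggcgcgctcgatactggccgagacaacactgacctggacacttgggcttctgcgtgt

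The windows of Hspa1a and Hspa1b differed at 4 of 300 positions, an identity of 98.7%, and hold the same pair, starting 104 bases before the start. Hspb1 holds 2 such pairs, 117 and 97 bases before its start. Hsph1 (not printed) holds 3 in its first annotated window, 2 of which overlap as 3 alternating units. No match is in the windows of Dnajb1 and Hspa5. Among 32851 mouse promoter windows of the same length, 15.1% hold at least 1 such pair, 0.603% hold 3 alternating units, and 0.119% hold the element found in Hspa5. These are matches of letters, and binding was not measured.

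In E14 the largest difference among the members was that of Hspa1a, 3.35-fold higher in the knockout. The heat-inducible HSP70 pair ran in opposite directions in the lines, higher in the E14 knockout and lower in the JB1 knockout, and it was at a trace level in all 4 libraries. In JB1 the differences of Hspb1 and Hspa8, each 1.44-fold higher in the knockout, rested on far more reads. The members other than the pair differed by less than 1.5-fold in either line. In bulk RNA, fewer cells with the transcript and less transcript per cell cannot be told apart.

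Hspa1a (chromosome 17, 35106144 to 35109069, minus strand, mm9) was 1.92 RPM in the E14 knockout (136 reads) and 0.574 RPM in E14 wild type (29 reads). Its ratio was 3.35 (95% interval 2.23 to 5.19), which is 0.89 on the log2(RPM + 1) scale, a scale that understates changes of genes this low. The JB1 knockout had 1.28 RPM (124 reads) and JB1 wild type 1.72 RPM (119 reads), a ratio of 0.743 (95% interval 0.573 to 0.964). The E14 wild-type library thus stood lowest of the 4, and the E14 knockout library highest.

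Hspa1b (35093381 to 35096183, minus strand), a neighbour 9.96 kb away with nearly the same product, followed the same directions. It was 2.80 RPM in the E14 knockout and 1.86 RPM in E14 wild type, a ratio of 1.504 (95% interval 1.17 to 1.94). The JB1 knockout had 1.58 RPM and JB1 wild type 2.47 RPM, a ratio of 0.638 (95% interval 0.510 to 0.799). Both genes have 1 exon in GENCODE M21, and 58.8% of the 50-base windows of the Hspa1a transcript also occur in Hspa1b, as do 62.3% of the Hspa1b windows in Hspa1a. How reads with several matches were treated is not given in the sources used here, so the split between these genes is uncertain and their sum is the firmer value. Summed, the pair was 4.72 RPM in the E14 knockout (334 reads) and 2.44 RPM in E14 wild type (123 reads), 1.94-fold higher (95% interval 1.57 to 2.40). In JB1 the sum was 2.86 RPM in the knockout (277 reads) and 4.19 RPM in wild type (290 reads), 1.47-fold lower (95% interval 1.24 to 1.74).

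**Figure D1:**
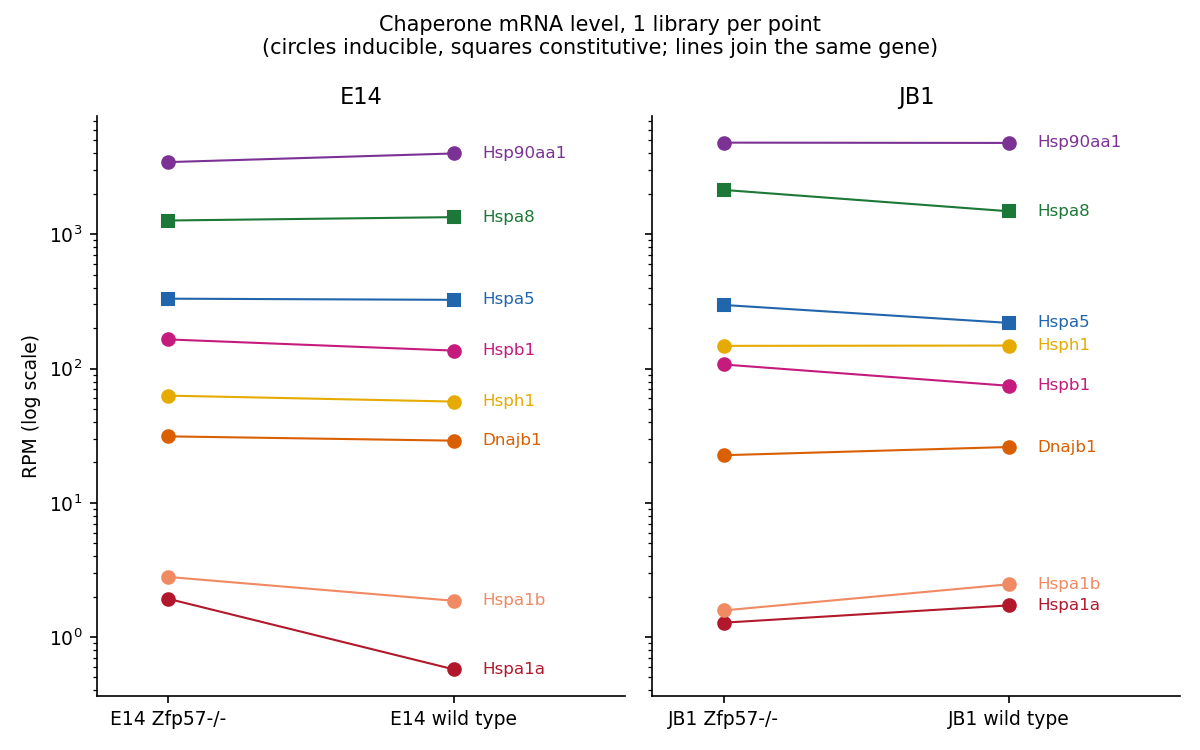
RPM of the 8 chaperone genes on a log axis, with 1 point per library, Zfp57-/- left of wild type in each line and a line joining each gene. Hspa1a and Hspa1b lie between 0.574 and 2.80 RPM, higher in the knockout in E14 and lower in JB1, while Hsp90aa1 lies at 3449 RPM or more in every library.

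Immediate early genes, which answer within minutes to serum, stress or handling, lay mostly in the direction of the pair in each line. None of these genes passed the limma test described below. That test seeks an effect common to both lines, so opposite changes cancel in it and it cannot judge them. Of 14 measured in E14, 13 were higher in the knockout, where 53.5% of all genes were, with a median log2 difference of 0.31 and sums of 149 RPM in the knockout and 111 RPM in wild type. Junb was 9.76 RPM in the E14 knockout and 3.15 RPM in wild type. In JB1, 11 of 14 were lower in the knockout and 3 higher, where 51.5% of all genes were higher, with a median of −0.56 and sums of 221 RPM in the knockout and 448 RPM in wild type. Fos was 4.72 RPM in the JB1 knockout and 46.1 RPM in wild type, and Egr1 was 30.5 RPM in the JB1 knockout and 166 RPM in wild type. The exceptions were Myc in E14 (ratio 0.817) and Myc (1.98), Dusp1 (1.39) and Nr4a1 (1.08) in JB1. The part of these genes' response in the Hspa1a and Hspa1b values was not tested.

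The co-chaperones of the inducible HSP70 proteins differed little. Dnajb1 (chromosome 8, 86132074 to 86135801, plus strand), the J-domain protein that hands clients to HSP70, was 31.2 RPM in the E14 knockout and 29.0 RPM in wild type, a ratio of 1.08 (95% interval 1.01 to 1.15). The JB1 knockout had 22.6 RPM and JB1 wild type 26.0 RPM, a ratio of 0.869 (95% interval 0.816 to 0.925). Its directions were those of Hspa1a and Hspa1b, at a much smaller size. Hsph1 (chromosome 5, 150416862 to 150438951, minus strand), the HSP110 nucleotide exchange factor, was 62.8 RPM in the E14 knockout and 56.7 RPM in wild type, a ratio of 1.11 (95% interval 1.056 to 1.16). Both JB1 libraries had 148 RPM, with a ratio of 0.995 (95% interval 0.970 to 1.02). Hsph1 separated the lines more than the genotypes, since both JB1 libraries lay above both E14 libraries, although the tables were scaled separately.

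Hsp90aa1 (chromosome 12, 111928815 to 111940938, minus strand), the HSP90 form that heat raises further, was 3449 RPM in the E14 knockout and 3999.99 RPM in E14 wild type, a ratio of 0.862 (95% interval 0.857 to 0.867). JB1 knockout cells had 4816 RPM and JB1 wild type 4792 RPM, a ratio of 1.01 (95% interval 1.001 to 1.01). At this depth even a difference under 1% leaves the counting interval clear of 1, so the interval alone says little for this gene. Its constitutive partner Hsp90ab1 was 1272 RPM in the E14 knockout and 1474 RPM in wild type, and 4959 RPM in the JB1 knockout and 3344 RPM in wild type. Per kb of exon, Hsp90aa1 stood at 2.07 times Hsp90ab1 in both E14 libraries, and at 0.741 times in the JB1 knockout and 1.09 times in JB1 wild type. In JB1 the HSP90 difference thus lay in the constitutive gene.

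Hspb1 (chromosome 5, 136363789 to 136365433, plus strand), which encodes a small heat shock protein that holds unfolding proteins without ATP, was the inducible member that was higher in the knockout of both lines. It was 165 RPM in the E14 knockout and 136 RPM in wild type, a ratio of 1.21 (95% interval 1.18 to 1.25). JB1 knockout cells had 107 RPM and JB1 wild type 74.4 RPM, a ratio of 1.44 (95% interval 1.39 to 1.49). Of its 50-base windows, 51.65% also occur in another annotated gene, a processed copy named Hsp25-ps1, so part of its reads may not be its own.

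The constitutive members were higher in the JB1 knockout and nearly level in E14. Hspa8 (chromosome 9, 40609067 to 40613283, plus strand), the housekeeping HSP70 that also strips clathrin from vesicles, was 2140 RPM in the JB1 knockout and 1485 RPM in JB1 wild type, a ratio of 1.44 (95% interval 1.43 to 1.45). In E14 it was 1267 RPM in the knockout and 1342 RPM in wild type, a ratio of 0.944 (95% interval 0.935 to 0.953). Annotated copies share 74.8% of its 50-base windows, against 58.5% for Hsp90aa1 and 0 for Hspa5 and Hsph1. Hspa5 (chromosome 2, 34627490 to 34632051, plus strand), also called BiP, was 298 RPM in the JB1 knockout and 219 RPM in wild type, a ratio of 1.36 (95% interval 1.33 to 1.39). In E14 it was 331 RPM in the knockout and 325 RPM in wild type, a ratio of 1.02 (95% interval 0.9997 to 1.04). The JB1 knockout library thus held the highest Hspa8 level of the 4, while the lowest Hspa5 level was that of JB1 wild type.

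**Figure D2:**
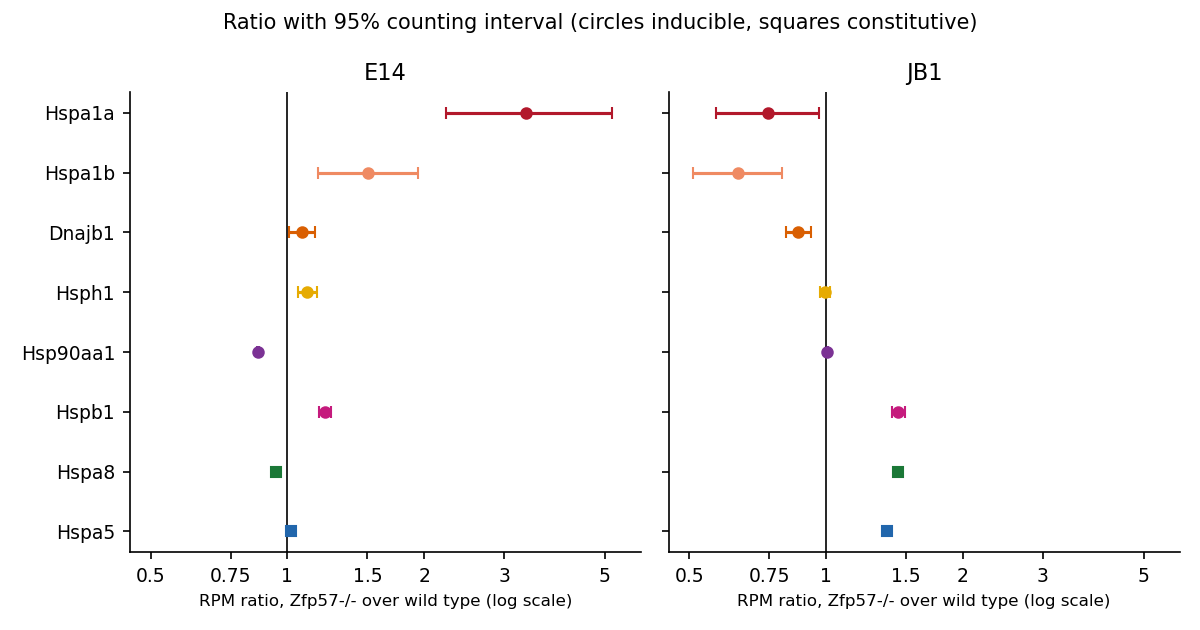
Ratio of RPM in Zfp57-/- over wild type for each chaperone gene in each line, on a log axis, with 95% intervals for counting error. Hspa1a and Hspa1b lie right of 1 in E14 and left of 1 in JB1, and Hspb1, Hspa8 and Hspa5 lie between 1.36 and 1.44 in JB1.

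Counted together in E14, 6 of 8 members were higher in the knockout, where 53.5% of 12276 genes at 1 RPM or more were higher by any amount. The members' median log2 difference was 0.12, against 0.02 over all genes. Only Hspa1a reached 1.5-fold on the log2(RPM + 1) scale. That far or farther, 3.81% of all genes lay higher in the E14 knockout and 2.27% lower. At 2-fold no member was counted on this scale, against 0.953% of genes higher and 0.269% lower. The counts rest on the added 1 RPM and the scaling. As plain ratios of RPM, Hspa1a and Hspa1b were past 1.5-fold, as were 6.78% of genes higher and 3.8% lower, and Hspa1a was past 2-fold, as were 2.47% higher and 0.782% lower. Scaled to the reads in listed genes, Hspa1a was at 1.14 on the log2(RPM + 1) scale, past 2-fold. The counting interval was clear of a ratio of 1 for 7 of 8 members and for 58.4% of all genes.

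In JB1, 4 of 8 members were higher in the knockout, where 51.5% of 13132 genes were. Their median was −0.00, against 0.01 over all genes. Split by class, the 6 inducible members had a median of −0.10 and the 2 constitutive members 0.48, and in E14 these medians were 0.21 and −0.03. On the log2(RPM + 1) scale no member reached 1.5-fold, against 9.91% of genes at least 1.5-fold higher and 6.52% lower in the JB1 knockout, and 2.5% and 1.58% at 2-fold. As a plain ratio Hspa1b was 1.57-fold lower, where that size was passed by 13.7% of genes upward and 8.73% downward, and 2-fold, which no member reached, by 5.54% and 2.9%. The interval was clear of 1 for 7 of 8 members and for 78.2% of all genes, a share that shows how readily counting error alone is passed at this depth.

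In 5 members (Hspa1a, Hspa1b, Dnajb1, Hsp90aa1 and Hspa8) the lines differed in direction with both intervals clear of 1, as did 18.1% of 11890 genes at 1 RPM or more in both lines. Scaled to the reads in listed genes, 3 members met this (Hspa1a, Hspa1b and Hspa8). Centred on the median of genes averaging 10 RPM or more in the line, 4 did (these and Hsp90aa1). No test of the difference between lines was possible with 1 library a group. A knockout effect common to E14 and JB1 was sought with limma on log2(RPM + 1), with line and genotype as terms, over 12644 genes. No member passed a Benjamini-Hochberg adjusted p of 0.05, and neither did any other gene (0%). Zfp57 itself, lower in both knockouts, did not pass either, so the absence of calls says little. Of all genes tested, 7.95% were under an unadjusted p of 0.05. Of the members, Hspb1 alone was under it: its shared log2 difference was 0.40 ± 0.16 (SE, higher in both lines, limma adjusted p = 0.627). Hspa5 followed at 0.24 ± 0.18 (limma adjusted p = 0.717) and Hspa1a at 0.32 ± 0.32 (limma adjusted p = 0.782).

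**Figure D3:**
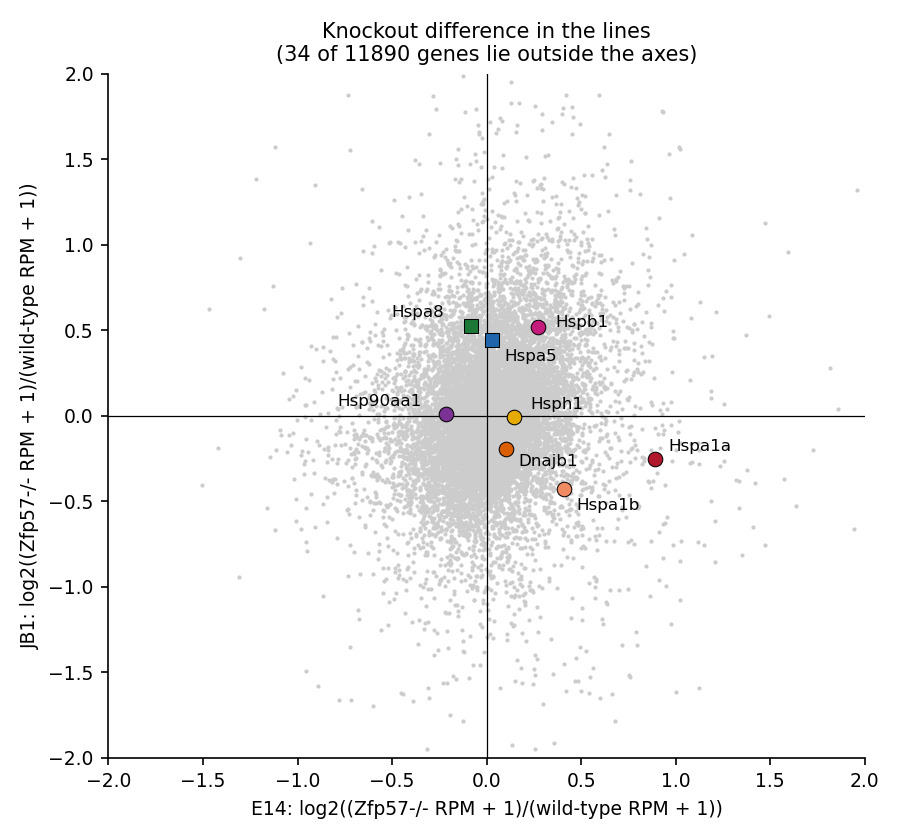
Knockout difference on the log2(RPM + 1) scale in E14 (x axis) and JB1 (y axis) for 11890 genes at 1 RPM or more in both lines (grey), with the chaperone genes in colour (circles inducible, squares constitutive). Hspa1a and Hspa1b lie at lower right, Hspb1 at upper right, and 34 genes lie outside the axes.

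Levels of different genes were compared per kb of exon, with exon lengths from GENCODE M21 as the union over transcripts. Among the members Hsp90aa1 came first in all 4 libraries, at 877 RPM per kb in the E14 knockout, 1018 in E14 wild type, 1225 in the JB1 knockout and 1219 in JB1 wild type. Hspa8, Hspb1 and Hspa5 followed in that order in every library, Hspa8 between 294 and 498, Hspb1 between 72.2 and 160 and Hspa5 between 51.7 and 78.4 RPM per kb. By this length Dnajb1 and Hsph1 lay close together in E14 (9.75 and 8.64 RPM per kb in the knockout, 9.06 and 7.81 in wild type). In JB1 Hsph1 was 20.3 in the knockout and 20.4 in wild type, and Dnajb1 was 7.06 in the knockout and 8.12 in wild type. The union is 7266 bases for Hsph1 and 3204 for Dnajb1, against 3802 and 2996 in the longest coding transcript. In RPM Hsph1 was the higher in all 4 libraries, so the order of these genes in E14 rests on the length used. Hspa1b and Hspa1a came last everywhere, at 0.194 to 0.999 RPM per kb. Hspa1a exceeded between 50.2% and 58.9% of the 22731 genes with a length, and Hspb1 between 98.5% and 99.5%. The inducible label thus covers levels from trace to among the highest in these cells. Per kb, Hspa8 stood at 179 times the sum of Hspa1a and Hspa1b in the E14 knockout and 364 times in E14 wild type, and at 501 times in the JB1 knockout and 236 times in JB1 wild type. These multiples rest on the length too, since Hspa8 has 4301 bases by the union and 2394 in its longest coding transcript. With no replicates, the spread behind this order is unknown.

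The transcription factors above the inducible genes were present throughout. Hsf1 was 10.6 RPM in the E14 knockout and 13.4 RPM in wild type, a ratio of 0.792 (95% interval 0.713 to 0.880), and 37.1 RPM in the JB1 knockout and 31.6 RPM in wild type, a ratio of 1.17. Hsf2, a related factor active in development, was 37.5 RPM in the E14 knockout and 45.3 RPM in wild type, and 36.8 RPM in the JB1 knockout and 38.8 RPM in wild type. In each line Hsf1 mRNA ran against the direction of the Hspa1a and Hspa1b values.

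Of the other genes that HSF1 is known to regulate, more were higher than lower in the knockout of each line. In E14, 16 of 21 measured were higher in the knockout, where 53.5% of all genes were (median log2 difference 0.09, against 0.02). None reached 1.5-fold on the log2(RPM + 1) scale, against 3.81% of all genes higher and 2.27% lower. In JB1, 16 of 22 were higher, where 51.5% of all genes were (median 0.24, against 0.01), 4 of them at least 1.5-fold, as were 9.91% of all genes. Hmox1, a heme-degrading enzyme of the stress response, was the lowest of the 22 in JB1, at 66.1 RPM in the knockout and 89.7 RPM in wild type. Hspd1, the mitochondrial HSP60, was 1358 RPM in the JB1 knockout and 694 RPM in wild type, a ratio of 1.96, while in E14 it was 358 RPM in the knockout and 346 RPM in wild type. Stip1, which joins HSP70 to HSP90, was 325 RPM in the JB1 knockout and 205 RPM in wild type, and in E14 it had 191 RPM in the knockout and 144 RPM in wild type. Its shared log2 difference was 0.53 ± 0.16 (SE, higher in both lines, limma adjusted p = 0.623). Ahsa1, which speeds up HSP90's ATP cycle, was 170 RPM in the JB1 knockout and 99.6 RPM in wild type. In E14 it had 76.2 RPM in the knockout and 64.3 RPM in wild type. The HSP90 partner Fkbp4 was 369 RPM in the JB1 knockout and 234 RPM in wild type, whereas in E14 it was 215 RPM in the knockout and 229 RPM in wild type.

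Over all genes, 53.5% were higher in the E14 knockout and 51.5% in the JB1 knockout. Co-chaperones of HSP70 and HSP90 as a list were higher in 17 of 20 cases in E14 (median 0.21) and in 14 of 20 in JB1 (median 0.22). On the log2(RPM + 1) scale none was past 1.5-fold in E14, against 3.81% of all genes higher. In JB1 4 were at least 1.5-fold higher, as were 9.91% of all genes. As plain ratios, Bag2 (1.59) and Hspbp1 (1.51) were at least 1.5-fold higher in E14, as were 6.78% of all genes. Subunits of the chaperonin TRiC, the ring that folds actin and tubulin, were higher in 6 of 8 cases in E14 (median 0.11) and in 8 of 8 in JB1 (median 0.51). Among them Cct3 was 481 RPM in the JB1 knockout and 285 RPM in wild type. J-domain proteins went both ways in JB1, with 7 of 12 higher (median 0.02) and Dnaja4, a cytosolic DNAJA form, at 3.04 RPM in the knockout and 6.62 RPM in wild type. In E14, 11 of 12 were higher (median 0.12).

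Relatives of the members within their own families were not uniform. Of all genes, 53.5% were higher in the E14 knockout and 51.5% in the JB1 knockout. Of 8 other HSP70 family genes measured, 7 were lower in the JB1 knockout (median −0.21) and 7 higher in the E14 knockout (median 0.07). Hspa9, the mitochondrial HSP70, was 854 RPM in the JB1 knockout and 1308 RPM in wild type, 1.53-fold lower, the opposite of Hspa8 and Hspa5. The 3 other HSP90 genes were all higher in the JB1 knockout, among them the ER form Hsp90b1 at 520 RPM in the knockout and 314 RPM in wild type. In E14, 2 of the 3 were lower (median −0.16). Of the small heat shock proteins other than Hspb1, 4 of 4 were higher in JB1 (median 0.28) and 2 of 3 in E14 (median 0.07), and Hspb8 was 16.4 RPM in the JB1 knockout and 11.3 RPM in wild type.

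Hspa5 was set beside the other ER chaperones and genes of the unfolded protein response. In JB1, 10 of 24 were higher and 14 lower in the knockout (median −0.09). The share of all genes that were higher was 51.5% in the JB1 knockout and 53.5% in the E14 knockout. Hsp90b1, given above, lay in the direction of Hspa5, whereas the sensor Atf6 was 48.0 RPM in the knockout and 102 RPM in wild type, 2.13-fold lower. Atf6 was the list's only gene past 2-fold, against 2.5% of all genes higher and 1.58% lower in the JB1 knockout. It lies on chromosome 1. Of genes near it, the log2 difference in JB1 was −1.55 for Ddr2, −0.27 for Uhmk1, −0.09 for Dusp12 and 0.04 for Sdhc. Atf6 itself was at −1.08, and the part of its region in this value was not tested. Sel1l, of the ER degradation complex, was 40.1 RPM in the JB1 knockout and 75.9 RPM in wild type, and Ddit3, a transcription factor induced by ER stress, was 17.5 RPM in the JB1 knockout and 28.2 RPM in wild type. In E14 the list divided evenly, 12 higher and 12 lower (median 0.01), with Ddit3 at 8.88 RPM in the knockout and 5.59 RPM in wild type. Mitochondrial chaperones were higher in 6 of 10 cases in JB1 (median 0.15) and in 8 of 10 in E14 (median 0.07). In the limma fit no gene of any list passed an adjusted p of 0.05, and neither did Zfp57.

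**Figure D4:**
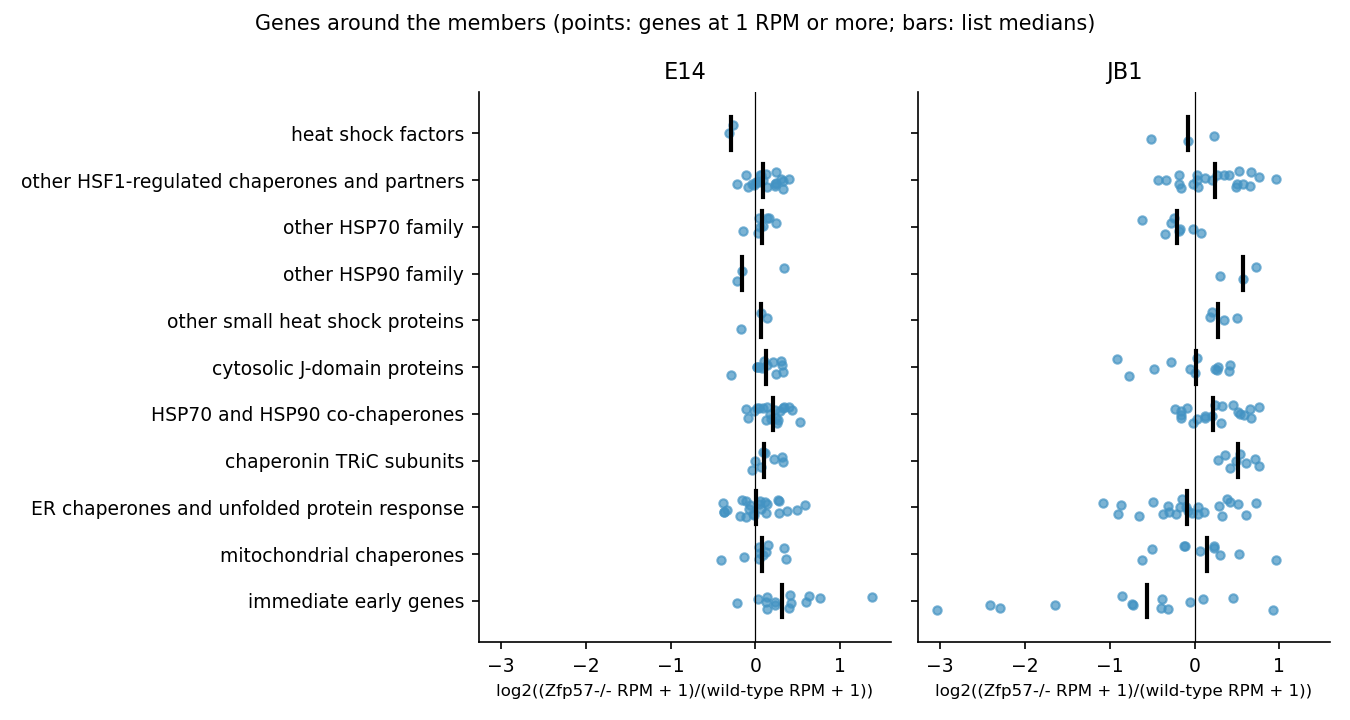
Knockout difference on the log2(RPM + 1) scale in E14 (left) and JB1 (right) for genes of 11 lists around the chaperones, with 1 point for each gene at 1 RPM or more and a bar at each list's median. The TRiC subunits all lie right of 0 in JB1 (median 0.51), and the immediate early genes spread to the left in JB1 and to the right in E14.

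Position gave the following values, beside 53.5% of all genes higher in the E14 knockout and 51.5% in the JB1 knockout. Hspa1a lies 2.03 Mb from Zfp57 on chromosome 17. In E14, 27 of 39 measured neighbours within 500 kb of Hspa1a were higher in the knockout (median 0.23). On the log2(RPM + 1) scale none was past 1.5-fold, against 3.81% of all genes higher and 2.27% lower, whereas Hspa1a itself was at 0.89. In JB1, 24 of 51 were higher (median −0.03), with Hspa1a at −0.26. Around Hspa8, all 4 measured neighbours were higher in the JB1 knockout (median 0.43, with Hspa8 at 0.53). In E14 all 3 measured were higher as well (median 0.18), whereas Hspa8 was at −0.08. Around Hspa5, 6 of 11 were higher in the JB1 knockout (median 0.07, with Hspa5 at 0.44) and 5 of 11 in the E14 knockout (median −0.00, with Hspa5 at 0.03). Around Hspb1, 16 of 18 were higher in the E14 knockout (median 0.19, with Hspb1 at 0.27). In JB1, 10 of 17 were (median 0.10, with Hspb1 at 0.52). Of these neighbours, 2 in E14 and 5 in JB1 were at least 1.5-fold higher, against 3.81% and 9.91% of all genes. None was that far lower, against 2.27% and 6.52%. The part of position in these values was not tested.

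The genes whose profile over the 4 libraries lay nearest to the median profile of the inducible members (0.21 in E14 and −0.10 in JB1), among 7901 other genes averaging 10 RPM or more, were H2-K1, Tdrd12, Rbm22, Hadha and Lin28a. Their Euclidean distances, over the 4 log2(RPM + 1) values of a gene centred on its mean within each line, were 0.00229 to 0.0097. As many as 596 genes lay within 0.1 of that profile, so it is a common one.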

How the data were processed

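RNA of 4 libraries of mouse embryonic stem cells was sequenced after poly(A) selection with a stranded TruSeq kit, per the labels' protocols. The authors deposited a table for each line, with log2 values of RPM. Per the submitters' processing notes, their tools were CASAVA 1.8.2, cutadapt and TopHat2 2.0.8b, on mm9. Which annotation, counter and strand setting they used, and how reads with several matches were treated, is not given in the sources used here, so transcripts overlapping a member on the other strand cannot be set apart. In each column, 0.9 × 2 to the power of the value minus the column's lowest value was whole for 100% of genes above it, within a relative tolerance of 0.0001. Reads were recovered from this, and the lowest value was read as 0 reads.

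From the deposited log2 values, differences were computed as log2((knockout RPM + 1)/(wild-type RPM + 1)) within each table, over genes at 1 RPM or more in either library. Ratios are of RPM without the added 1, with exact conditional binomial (Clopper-Pearson) 95% intervals. Reads are not independent molecules. The labels name no replicates, so only the lines repeat the genotype contrast. The p-values set the mean difference of the lines against a spread. That spread joins the disagreement of the lines for the gene with a value fitted over all genes, which had 5.276 prior degrees of freedom. limma 3.58.1 in R 4.3.3 tested the shared effect (eBayes with trend, mean of at least 1 RPM, 1 residual degree of freedom) and was tested on simulated data. The simulated lines shared each set change, so the simulation does not show how the test does where lines disagree. At 1 RPM a gene had between 50.5 and 97.0 reads. Annotation, exon lengths and transcript windows came from GENCODE M21 (GRCm38), used for no coordinates. Gene coordinates are the tables' (mm9), and promoter windows are in GRCm38.p6. Lengths were matched by symbol for 87.0% of genes. Up to 5 genes per list were eligible to be named, those with the largest absolute difference in either line, beside all 8 members. Some genes outside this rule are named as well, among them Pou5f1, Dcn, Hmox1, Myc, Dusp1, Nr4a1, Bag2 and Hspbp1. Some genes stand in several lists. The members and lists were chosen with earlier results of these data known. Alternatives were the pseudocount, the filter, the scaling, the line term, the trend and leaving out a line. The plain ratio and the alternatives to the counts at 2-fold and of opposite directions were added after seeing the data. Python 3.11.15, scipy 1.17.1 and matplotlib 3.10.9 were used.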

Additional observations from a re-analysis of the deposited data

Results flagged for a closer look

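The lines moved in opposite directions, each with its counting interval clear of 1, in 5 of the 8 chaperone genes. Dnajb1 and Hsp90aa1 did not meet this when scaled to the reads in listed genes, which leaves 3. Dnajb1 did not when centred on the median of genes averaging 10 RPM or more in the line, which leaves 4. The ratio of knockout over wild type was 3.35 in E14 and 0.743 in JB1 for Hspa1a, and 1.5 in E14 and 0.638 in JB1 for Hspa1b. For Dnajb1 it was 1.08 in E14 and 0.869 in JB1. For Hspa8 it was 0.944 in E14 and 1.44 in JB1, and for Hsp90aa1 0.862 in E14 and 1.01 in JB1. Each ratio compares 1 library with 1 library, and the difference between the lines was not tested. Of all genes at 1 RPM or more in both lines, 18.1% met the same condition.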

How the results depend on the processing

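The number of members at least 1.5-fold different on the log2(RPM + 1) scale was 1 of 8 in E14 and 0 of 8 in JB1. In E14 it was 0 with a pseudocount of 5 RPM, which shrinks low genes by construction, and 0 with a filter of 5 RPM, which removes Hspa1a and Hspa1b. In JB1 it was 1 (Hspa1b) with a pseudocount of 0.1 RPM. With no pseudocount, an alternative chosen after seeing the data like those of the next 2 sentences, it was 2 in E14 and 1 in JB1. The number at least 2-fold different, 0 in both lines, was 1 in E14 (Hspa1a) with a pseudocount of 0.1 RPM, with none and when scaled to the reads in listed genes. The number of members in opposite directions, 5, was 3 when scaled to the reads in listed genes and 4 when centred on the median. With the filter of 5 RPM the members' median was 0.065 in E14 and 0.22 in JB1, against 0.12 and −0.00. The counts at 1.5-fold were the same under both other scalings, with Hspa1a and Hspa1b summed, and without a filter, and the medians moved by less than the members' median half-width of the counting interval. The JB1 difference of Hsp90aa1, 0.0074, was 0.00018 when scaled to the reads in listed genes. With limma, 0 genes were called under all 9 settings, with between 16 (no cell line term) and 1688 (no filter) at an unadjusted p under 0.05, and the lowest adjusted p of a member was 0.574. The shared effect of Hspa1b, −0.01, became 0.00060 with a pseudocount of 5 RPM. Leaving out a line in turn leaves values without a test, and no count of calls. These ran from −0.26 to 0.89 for Hspa1a, −0.43 to 0.41 for Hspa1b, −0.19 to 0.10 for Dnajb1, −0.0074 to 0.14 for Hsph1, −0.21 to 0.0074 for Hsp90aa1 and −0.083 to 0.53 for Hspa8, so their directions rest on which line is kept. Hspb1 and Hspa5 kept theirs, at 0.27 to 0.52 and 0.028 to 0.44. The limma fit pairs the libraries by line, and without the line term it called 0 genes too; the labels give no replicate numbers for another pairing. Depth limits Hspa1a most, with 29 reads in E14 wild type.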
